A study of Mus musculus with 6 samples.

Results

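Collagen leaves the cell only after it has been folded and hydroxylated. It becomes a load-bearing fibre only after it has been trimmed and crosslinked. The 10 genes described here make the enzymes and chaperones of these steps, and they were chosen by name: *Serpinh1*, *Plod1*, *Plod2*, *Plod3*, *P3h1*, *Crtap*, *Ppib*, *Lox*, *Loxl2* and *Bmp1*. They are 10 of the 54532 genes in the deposited table of read counts, and all 10 had enough counts to be tested.

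In the endoplasmic reticulum (ER), HSP47 (*Serpinh1*) binds folded procollagen and accompanies it towards the Golgi. Lysyl hydroxylases (*Plod1* to *Plod3*) add hydroxyl groups to lysines, some of which later become crosslinks or carry sugars, and a complex of prolyl 3-hydroxylase 1 (*P3h1*), CRTAP and cyclophilin B (*Ppib*) modifies single prolines and assists folding. Outside the cell BMP1 cuts off the C-propeptide, and the copper enzymes LOX and LOXL2 oxidize lysines and hydroxylysines so that neighbouring molecules can join. In cartilage the main substrate is type II collagen, with smaller amounts of types IX and XI, whereas perichondrium and bone use mostly type I. Inherited loss of several of these genes causes brittle bone disease.

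The RNA came from *Gli1-CreERT2; tdTomato* mice on a C57BL/6 background, 1 month old and harvested 24 h after tamoxifen (TAM). In these mice a recombinase made from the *Gli1* locus switches on the red protein tdTomato once TAM is given, so the label marks cells that made *Gli1* at that time and any daughters born since. All mice, and therefore both populations, carried the recombinase and the reporter and received TAM. CD45-CD31-Ter119- cells, a gate that leaves out leukocytes, endothelial and erythroid cells, were sorted into tdTomato+ cells, called Gli1+, and tdTomato- cells, called Gli1-. The Gli1- population is thus every other cell inside the gate and not 1 cell type. There were 3 libraries of each population, numbered 1 to 3, and the study describes them as biological replicates from the same mice, without stating that a number stands for 1 mouse or how many mice were pooled. The sample labels name the growth plate as the tissue, and the study's text names costal cartilage.

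The codons below show where the family members are alike and where a read could tell them apart. The 4 copper-site stretches encode the part of the catalytic domain in which histidines hold the copper ion, and the capitals mark the 4 histidine codons. They were read from GENCODE M21 coding sequences on GRCm38. Each stretch joins the end of 1 exon to the start of the next: exons 10 and 11 of *Loxl2* (chr14:69682316-69689037, plus strand), 3 and 4 of *Loxl1* (chr9:58293720-58294381, minus strand), 10 and 11 of *Loxl3* (chr6:83049995-83050125, plus strand), and 11 and 12 of *Loxl4* (chr19:42598807-42599899, minus strand).
Loxl2: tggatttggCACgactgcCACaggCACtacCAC
Loxl4: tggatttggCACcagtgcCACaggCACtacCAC
Loxl3: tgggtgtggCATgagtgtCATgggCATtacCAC
Loxl1: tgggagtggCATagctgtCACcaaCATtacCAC

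Of these 33 bases, *Loxl4* shared 31 with *Loxl2* (93.9%), *Loxl3* shared 25 (75.8%) and *Loxl1* shared 22 (66.7%). Over the whole protein LOXL2 was 56.4% identical to LOXL3 and 55.7% to LOXL4, but 35.9% to LOX, which lacks the scavenger receptor domains of LOXL2. The 3 lysyl hydroxylases were 58.3% to 60.5% identical to each other. Even so, no stretch of 50 bases in any of the 10 transcripts occurred in another member or family gene, so reads of that length could be assigned within the families.

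A second pair of stretches shows what keeps ER residents in the ER. A protein that ends in KDEL or a near variant is returned from the Golgi, and the last 10 codons of *Serpinh1* (chr7:99346123-99346152, minus strand) and of the *P3h1* transcript with such an end (chr4:119248014-119248043, plus strand) are shown with the retrieval codons in capitals.
Serpinh1: cccaagggagacaagatgCGAGATGAGTTG
P3h1: gacagagggtcgctgcacAAGGATGAGCTA

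*Gli1* itself was examined first, as a check of the sort. It was at 4.55, 6.39 and 7.98 CPM (read counts scaled to a common library size, with TMM factors that even out differences in composition) in Gli1+ replicates 1, 2 and 3, and at 0.724, 1.26 and 2.43 CPM in the Gli1- libraries. The populations did not overlap. The log2 fold change (log2FC, Gli1+ over Gli1-) was 2.09. In edgeR's quasi-likelihood test, the main test here, the unadjusted p was 0.0152 and the adjusted p 0.9999. That test thus did not reach an adjusted p under 0.05 for the sort marker itself. DESeq2 gave an adjusted p of 0.316, and 0.0189 with the replicate number as a block, which compares libraries of the same number.

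Among the properties of the libraries, 3 touch the results. Both libraries numbered 2 held far more cartilage collagen RNA than the others, with 23628 CPM in Gli1+ and 30061 CPM in Gli1- summed over 8 genes of types II, IX, X, XI and XXVII, against 5025 to 6695 CPM elsewhere. Gli1+ replicate 1 had a count for 15000 genes, against 20666 to 23360 in the other libraries, at a similar total. Gli1- replicate 1 held 3302 CPM over 9 leukocyte markers, against 41.7 to 186 CPM elsewhere. Erythroid markers summed to 0 to 19.1 CPM, endothelial markers to 1.60 to 11.5 CPM, osteoblast markers to 6.00 to 18.2 CPM and skeletal muscle markers to 1.06 to 35.3 CPM. Of the 9 chondrocyte markers 8 had counts in all libraries, and the exception, *Matn1*, was at 0 in Gli1+ replicate 1. Totals were 17114101 to 18602482 counts a library.

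None of the 10 genes was called at the study's thresholds (|log2FC| over 1 and adjusted p under 0.05) in edgeR's quasi-likelihood test. Neither was any of the 14801 genes tested, a background of 0%. The study itself reports many differentially expressed genes at these thresholds. Its analysis was run by a company and its text does not name the test, and why the numbers of calls differ was not tested. By an unadjusted p under 0.05, *Loxl2* alone of the 10 passed, where 514 of all genes (3.47%) did. DESeq2 without a block called 30 genes and none of the 10, and limma-voom called 0. *Loxl2* was also the only member with a |log2FC| over 1, which 16.7% of all genes had. The log2FC was above 0 for 7 of 10 members, against 50.1% of all genes, and its median was 0.15, against 0.0013 over all genes. In no member did the 3 Gli1+ libraries all lie on the same side of the 3 Gli1- libraries, whereas 8.49% of all genes separated in that way. Between same-numbered libraries, the Gli1+ library held more *Loxl2* in 3 of 3 pairs and less *Bmp1* in 3 of 3. The other 8 members did not keep 1 direction over the pairs, and 37.5% of all genes did. These are bulk populations, in which fewer cells that make an RNA and less RNA per cell cannot be told apart.

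**Figure D1:**
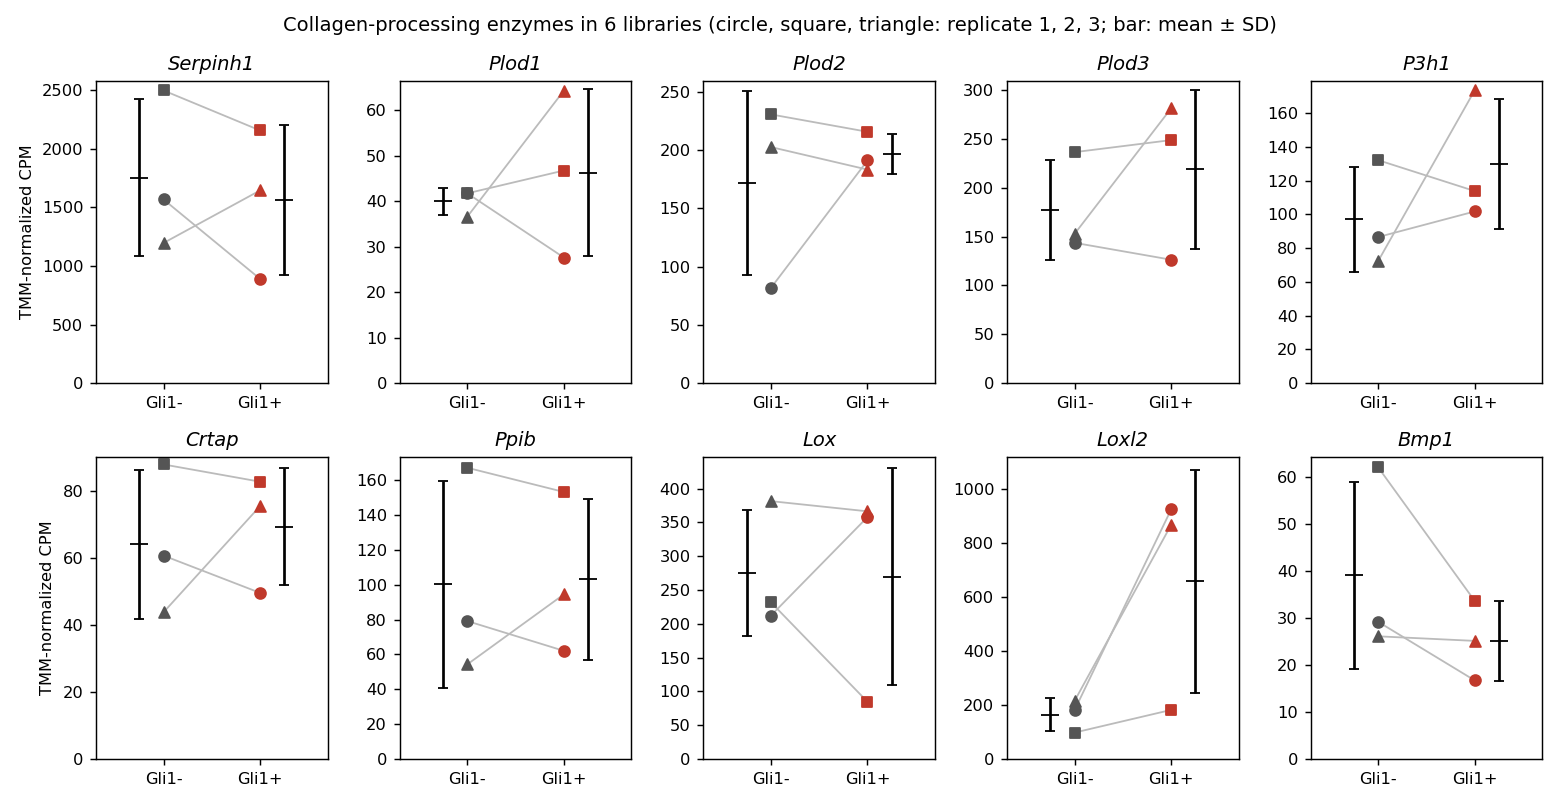
Level of the 10 genes in each library (y axis, TMM-normalized CPM, from 0) in Gli1- and Gli1+ cells (x axis); grey lines join libraries of the same number, and bars are means ± SD of 3 libraries. *Loxl2* lines all run upwards, to 925, 182 and 868 CPM, and *Bmp1* lines all run downwards, while the lines of each other gene run both ways.

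*Serpinh1* (ENSMUSG00000070436, chromosome 7, 99345376 to 99353239, minus strand) had the highest mean level of the 10 in both populations, in CPM and per kb. It was at 888, 2154 and 1644 CPM in Gli1+ replicates 1, 2 and 3, and at 1566, 2495 and 1195 CPM in the Gli1- libraries. The 2 ranges overlapped, and the highest library of each population was replicate 2. The Gli1+ mean was 1562 ± 637 CPM (SD, n = 3), against 1752 ± 669.8 CPM (SD, n = 3) for Gli1-. The log2FC was -0.17, with a 95% interval of -1.44 to 1.11 and an unadjusted edgeR p of 0.772. Per kb of gene length, which allows genes to be compared, it reached 639 ± 261 CPM in Gli1+ cells, against 717 ± 274 in Gli1-. The next member lay at 122 ± 76.5 CPM per kb in Gli1+ cells (*Loxl2*) and at 57.2 ± 19.3 in Gli1- cells (*Lox*).

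In the prolyl 3-hydroxylation complex, no subunit differed between the populations beyond the spread of its libraries. *P3h1* (ENSMUSG00000028641, chromosome 4, 119232915 to 119248975, plus strand), the catalytic subunit, was at 102, 114 and 174 CPM in Gli1+ and 86.6, 132 and 72.4 CPM in Gli1- replicates 1, 2 and 3. Its log2FC was 0.42 (95% interval -0.55 to 1.39). Gli1+ replicate 3 was the highest library, and the ranges overlapped.

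*Crtap* (ENSMUSG00000032431, chromosome 9, 114375134 to 114390675, minus strand) makes the helper subunit, a relative of P3H1 without its catalytic part. It was at 49.6, 82.8 and 75.5 CPM in Gli1+ and at 60.7, 87.9 and 43.8 CPM in Gli1- libraries, with a log2FC of 0.11 (95% interval -0.86 to 1.08). *Ppib* (ENSMUSG00000032383, chromosome 9, 66060222 to 66066623, plus strand), the prolyl isomerase of the complex, was at 62.1, 153 and 94.5 CPM in Gli1+ and at 79.2, 167 and 54.3 CPM in Gli1- libraries. For both genes the library of each population with the most RNA was replicate 2. The log2FC of *Ppib* was 0.04 (95% interval -1.21 to 1.30). Of its exonic bases 25.0% overlap *Snx22*, and how such reads were assigned is not given in the sources used here.

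The complex can also be read inside each library, free of any scaling between libraries. The log2 ratio of *Ppib* to *Crtap* counts was 0.33, 0.89 and 0.32 in Gli1+ and 0.38, 0.93 and 0.31 in Gli1- replicates 1, 2 and 3. Both replicate 2 libraries stood above the other 4, and the populations overlapped. The mean difference between populations was -0.03 (2-sided exact permutation p = 0.7, adjusted p = 0.7 over 8 ratios, where 0.1 is the smallest p that splits of 6 libraries into 3 and 3 allow). For *P3h1* over *Crtap* the difference was 0.29 (exact permutation p = 0.4, adjusted p = 0.7).

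The 3 lysyl hydroxylases differ in what they modify. PLOD1 acts mainly on the helix, PLOD2 on the telopeptides, from which stable crosslinks start, and PLOD3 also transfers sugars. *Plod1* (ENSMUSG00000019055, chromosome 4, 147909753 to 147936767, minus strand) was at 27.6, 46.7 and 64.3 CPM in Gli1+ and at 41.7, 41.7 and 36.6 CPM in Gli1- libraries. The Gli1- libraries lay close together, at 40.0 ± 2.98 CPM (SD, n = 3), and the Gli1+ libraries lay on both sides of them, at 46.2 ± 18.3 CPM (SD, n = 3). The log2FC was 0.21 (95% interval -0.76 to 1.18).

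*Plod2* (ENSMUSG00000032374, chromosome 9, 92542223 to 92608428, plus strand) showed the opposite spread. Its Gli1+ libraries were at 191, 216 and 183 CPM, a coefficient of variation of 8.61%, and its Gli1- libraries were at 81.8, 231 and 203 CPM. Only Gli1- replicate 1, the library with the leukocyte RNA, stood below the rest, and without it the log2FC of 0.20 became -0.14. The part of the leukocyte RNA in this value was not tested. *Plod3* (ENSMUSG00000004846, chromosome 5, 136987019 to 136996648, plus strand) was at 126, 249 and 281 CPM in Gli1+ and at 144, 236 and 153 CPM in Gli1- libraries, with a log2FC of 0.30 (95% interval -0.76 to 1.36).

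Per kb, *Plod2* and *Plod3* together made up most of the lysyl hydroxylase RNA in each library, and *Plod1* the remaining 6.05% to 11.6%. *Plod3* contributed 51.4% ± 8.99 (SD, n = 3) in Gli1+ cells, against 51.8% ± 7.92 (SD, n = 3) in Gli1-. The share of *Plod2* was 41.3% ± 10.3 and 39.9% ± 10.4 in the same order. The mix of isoenzymes therefore differed less between populations than between libraries of 1 population. The log2 ratio of *Plod2* to *Plod1* differed by 0.20 (exact permutation p = 0.7) and that of *Plod3* to *Plod1* by 0.13 (exact permutation p = 0.6), both with an adjusted p of 0.7.

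**Figure D2:**
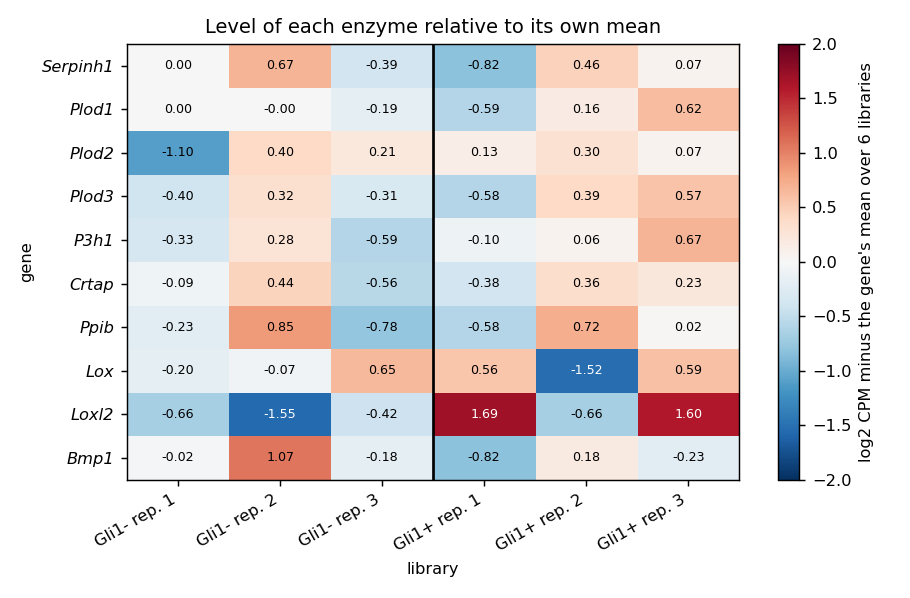
Log2 CPM of each gene minus its own mean over the 6 libraries (colour and printed number), with genes as rows and libraries as columns and a line between Gli1- (left) and Gli1+ (right). Of the ER genes *Serpinh1*, *Plod2*, *Plod3*, *P3h1*, *Crtap* and *Ppib* are above their means in both replicate 2 libraries, and so is *Bmp1*. The ER gene *Plod1* is at -0.00063 in Gli1- and 0.16 in Gli1+ replicate 2. *Loxl2* is at -1.55 and -0.66 there, below its mean.

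*Bmp1* (ENSMUSG00000022098, chromosome 14, 70474558 to 70520234, minus strand), the procollagen C-proteinase, had the lowest level per kb of the 10 genes in both populations. It was at 16.7, 33.7 and 25.2 CPM in Gli1+ and at 29.2, 62.1 and 26.1 CPM in Gli1- libraries. Each Gli1+ library was below the Gli1- library of its number, by 0.80, 0.88 and 0.05 on the log2 scale for numbers 1, 2 and 3, and in the third pair the values were nearly equal. The log2FC was -0.64 (95% interval -1.77 to 0.50), with an unadjusted edgeR p of 0.232. It was -0.17 without Gli1- replicate 2, the library with the highest value.

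The crosslinking enzymes LOX and LOXL2 carry out the same reaction, and their RNAs had unlike differences between the populations. *Loxl2* (ENSMUSG00000034205, chromosome 14, 69609068 to 69695834, plus strand) was at 925, 182 and 868 CPM in Gli1+ replicates 1, 2 and 3, and at 181, 97.6 and 215 CPM in the Gli1- libraries. Gli1+ replicates 1 and 3 stood above all other libraries, and Gli1+ replicate 2 lay between the Gli1- libraries, so the populations overlapped through that library alone. The means were 658 ± 414 CPM (SD, n = 3) and 164 ± 60.3 CPM (SD, n = 3). The log2FC was 2.0 (standard error 0.68, 95% interval 0.44 to 3.56), with an unadjusted p of 0.0182 and an adjusted p of 0.9999 in edgeR's quasi-likelihood test. Within pairs the log2 difference was 2.36, 0.90 and 2.01.

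How firmly *Loxl2* is called depended on the test. With the replicate number as a block, which compares libraries of the same number, DESeq2 called it at a log2FC of 1.75 (adjusted p = 0.00109), and *Loxl2* was the 1 call among the 10 members, where 2.89% of all genes were called. The blocked edgeR and limma-voom fits gave nearly the same log2FC, 1.76 and 1.77, but adjusted p-values of 0.381 and 0.206. Without both libraries numbered 3 DESeq2 no longer called it (log2FC 1.64, adjusted p = 0.175), and without those numbered 1 or 2 it did (1.45 and 2.17). A fit to 2 pairs holds little information on spread, so a call gained or lost in such fits, here and below, is weak evidence. Leaving out single libraries gave a log2FC of 1.65 (without Gli1+ replicate 1) to 2.43 (without Gli1+ replicate 2). The unadjusted edgeR p rose above 0.05 when Gli1+ replicate 1 (0.0536), Gli1+ replicate 3 (0.0586) or Gli1- replicate 2 (0.0555) was left out. Both libraries numbered 2, the lowest of their populations for *Loxl2*, were those with the most cartilage collagen RNA, and the part of this in the result was not tested.

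Other loci resemble *Loxl2*. Of its 50-base stretches 42.9% also occur in *Gm21451*, an unprocessed pseudogene that holds the copper-site bases printed above, and 3.85% occur in *Gm16867*. A further gene, *Gm27177*, shares 3.85% and overlaps *Loxl2*. These genes received 0 to 43, 0 to 52 and 0 to 15 counts a library, few beside *Loxl2*, so that adding the first 2 could change its log2FC little by construction (1.99 in edgeR). Shared reads that were left out of the counts are not seen here.

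*Lox* (ENSMUSG00000024529, chromosome 18, 52516069 to 52529867, minus strand), the founding member of the family, was at 358, 84.5 and 366 CPM in Gli1+ and at 212, 232 and 381 CPM in Gli1- libraries. Gli1+ replicate 2 had the lowest value of all, and the other 5 libraries overlapped. The log2FC was -0.03 (95% interval -1.42 to 1.36), with an unadjusted edgeR p of 0.962. It was 0.38 without Gli1+ replicate 2.

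The balance of both enzymes was also read within each library. The log2 ratio of *Lox* to *Loxl2* counts was -1.37, -1.10 and -1.24 in Gli1+ and 0.23, 1.25 and 0.83 in Gli1- replicates 1, 2 and 3. Every Gli1+ library thus held more counted *Loxl2* than *Lox* reads, and every Gli1- library the reverse. In Gli1- replicate 1 the counts were close, 3494 for *Loxl2* and 4100 for *Lox*. Of the 50-base stretches of *Loxl2* 45.0% occur in other genes, against 0% for *Lox*. Shared reads left out of the counts would therefore lower *Loxl2* alone, and the order within a library is uncertain to that extent. Gli1+ replicate 2, where *Lox* and *Loxl2* were both low, had a ratio like the other Gli1+ libraries. The means were -1.24 ± 0.13 (SD, n = 3) and 0.77 ± 0.51 (SD, n = 3). The difference of -2.01 had a 2-sided exact permutation p of 0.1, the smallest that such splits allow, and an adjusted p of 0.7 over the 8 ratios. Within pairs it was -1.60, -2.35 and -2.07, and an exact permutation by sign flips of the 3 pairs, added after seeing the data, gave its smallest possible p of 0.25. The difference lay between -2.28 and -1.77 with any 1 library left out. This was the only 1 of the 8 ratios whose populations did not overlap. By the permutation p of 0.1, a share of 0.1 of the splits separates any ratio, and 1 of 8 is near that share.

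**Figure D3:**
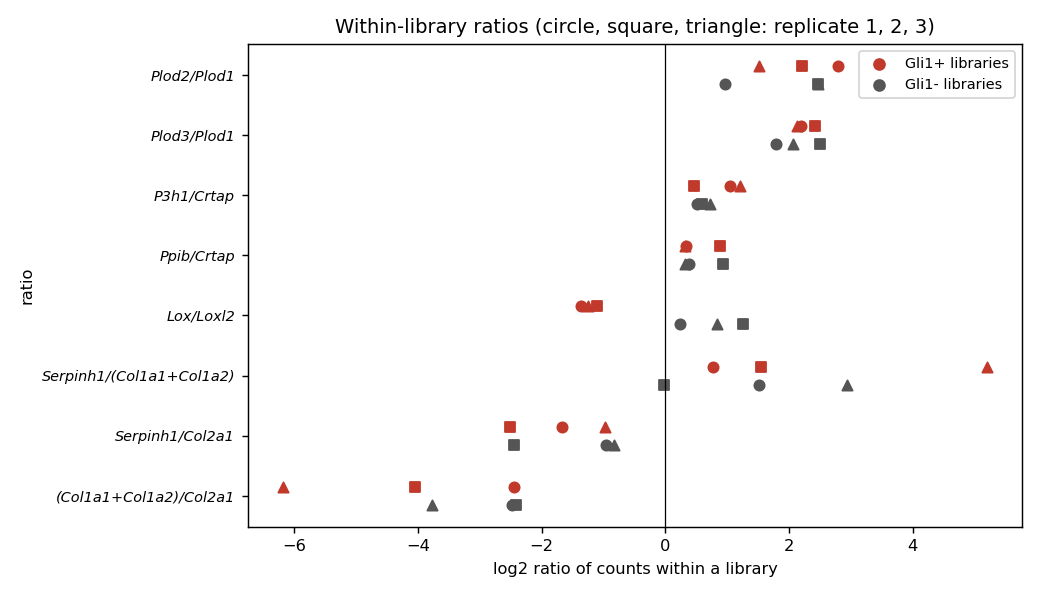
Log2 ratios of counts within each library (x axis) for the 8 gene pairs (y axis), with Gli1+ libraries in red and Gli1- libraries in grey. For *Lox* over *Loxl2* the red points lie from -1.37 to -1.10 and the grey from 0.23 to 1.25, and for every other pair the colours overlap.

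Per kb, *Loxl4* had the highest level of the family in both replicate 2 libraries and in Gli1- replicate 3. It was at 341, 579.6 and 588 CPM in Gli1+ and at 164, 324 and 352 CPM in Gli1- libraries, higher in 3 of 3 pairs, with a log2FC of 0.85 and an unadjusted edgeR p of 0.118. *Loxl3* had a log2FC of 0.08 and *Loxl1*, the member tied to elastic fibres, of -0.90. Both are named to complete the family. Summed per kb over the 5 oxidases, the Gli1+ libraries held 348, 243 and 416 CPM and the Gli1- libraries 144, 200 and 236 CPM. The populations did not overlap in this sum, by a small gap between Gli1+ replicate 2 and Gli1- replicate 3, and the difference was not tested.

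*Loxl2* made up 49.2%, 13.8% and 38.6% of the family sum in Gli1+ and 23.2%, 9.03% and 16.8% in Gli1- replicates 1, 2 and 3. *Lox* made up 21.4%, 7.22% and 18.3% in Gli1+ and 30.5%, 24.1% and 33.6% in Gli1- libraries. The *Lox* shares did not overlap and the *Loxl2* shares did. Shared reads of *Loxl2* that were left out of the counts would lower its part here and in the family sums. In both replicate 2 libraries, Gli1+ and Gli1-, *Loxl4* was the largest part, at 56.6% and 38.5%.

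**Figure D4:**
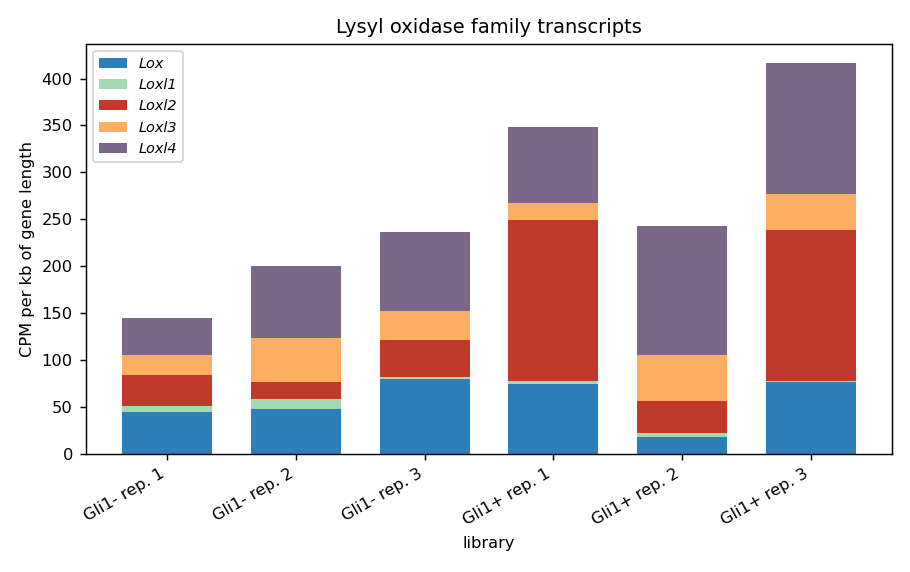
Lysyl oxidase family RNA in each library (x axis), as CPM per kb of gene length (y axis, from 0), stacked by gene. The bars of the Gli1+ libraries reach 243 to 416 and those of the Gli1- libraries 144 to 236, and the *Loxl2* part (red) is widest in Gli1+ replicates 1 and 3.

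Among the other genes of collagen maturation, a list of 40 that covers modification, folding, export, trimming, crosslinking and fibre assembly, no gene was called by edgeR. Of the 40, 17 had a log2FC above 0, and the median was -0.08. Those with an unadjusted p under 0.05 in edgeR were *P4ha3* and *Adamts3*, 2 of the 40, against 3.47% of all genes. *P4ha3*, a catalytic subunit of prolyl 4-hydroxylase, was at 8.73, 13.6 and 12.3 CPM in Gli1+ and at 2.43, 6.83 and 4.87 CPM in Gli1- libraries (log2FC 1.29, with an unadjusted edgeR p of 0.0492). *Adamts3*, a procollagen N-proteinase that cuts type II procollagen, was at 9.21, 8.29 and 4.04 CPM in Gli1+ and at 16.7, 36.7 and 34.1 CPM in Gli1- libraries (log2FC -2.02, with an unadjusted edgeR p of 0.00506). Both genes separated the populations, *P4ha3* with Gli1+ above and *Adamts3* with Gli1+ below, as 8.49% of all genes did in either direction.

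Of the most abundant genes of the ER roles, 3 had log2FC values near 0. They were *P4hb*, the shared subunit of prolyl 4-hydroxylase (-0.12), *Pdia3*, a disulfide isomerase (0.03), and *Kdelr2*, the receptor that returns KDEL proteins such as HSP47 (0.09). *Colgalt1*, which adds galactose to hydroxylysine, was at 0.53, and *P3h3*, a partner of PLOD1, at -0.95, or -0.12 without Gli1- replicate 2. None of the 5 passed an unadjusted p under 0.05 in edgeR without the block, and with it *P3h3* did (unadjusted edgeR p of 0.0480).

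Of the 40, edgeR and limma-voom with the replicate block called 0, and DESeq2 with the block called 6. DESeq2 called 2.89% of all genes in that fit. *Fn1*, on whose fibrils collagen assembles, was higher in Gli1+ cells (log2FC 1.25, adjusted p = 0.0389). The other 5 were lower: *Adamts3* (-2.04), the N-proteinase *Adamts2* (-1.77), *Pcolce*, which enhances BMP1 (-1.51), *Tnxb*, a tenascin (-1.28), and *Fmod*, a small proteoglycan that binds collagen and LOX (-1.13). *Pcolce2*, the second enhancer, was at -0.02 in the same fit. In fits to 2 pairs, the 5 lower genes were called without number 1 and *Fn1* was not (log2FC 0.87), and none of the 6 was called without number 2 or 3. The log2FC of the 5 kept its direction in these fits, at -2.61 to -1.49 for *Adamts3*, -1.89 to -1.64 for *Adamts2*, -1.69 to -1.36 for *Pcolce*, -1.46 to -1.02 for *Tnxb* and -1.21 to -1.01 for *Fmod*. In edgeR without the block the log2FC of *Fmod* was -1.23, and -0.26 without Gli1- replicate 2. That of *Adamts2* was -1.71, and -1.05 without the same library. That of *Tnxb* was -1.25, and -0.40 without Gli1- replicate 1. Markers of fibroblasts and perichondrium lay the same way: 7 of 8 had a log2FC below 0, the median was -1.27, and DESeq2 with the block called 3 of them lower. The same block in edgeR or limma-voom gave 0 calls among these markers. Their summed level was 1788 to 3469 CPM in Gli1+ and 1727 to 7726 CPM in Gli1- libraries, and 7 of the 8 had counts in all libraries. Their part in these calls was not tested.

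*Pcolce* was at 4.34, 63.4 and 3.20 CPM in Gli1+ and at 14.8, 144 and 9.57 CPM in Gli1- libraries. Its differences between numbers were thus larger than those between populations, and the fit without the block gave -1.25 with a 95% interval of -4.35 to 1.85, and 0.93 without Gli1- replicate 2. *Fn1* was at 69131, 15115 and 55915 CPM in Gli1+ and at 17186, 10089.9 and 24556 CPM in Gli1- libraries. As for *Loxl2*, Gli1+ replicates 1 and 3 were above all others and the lowest library of each population was replicate 2.

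**Figure D5:**
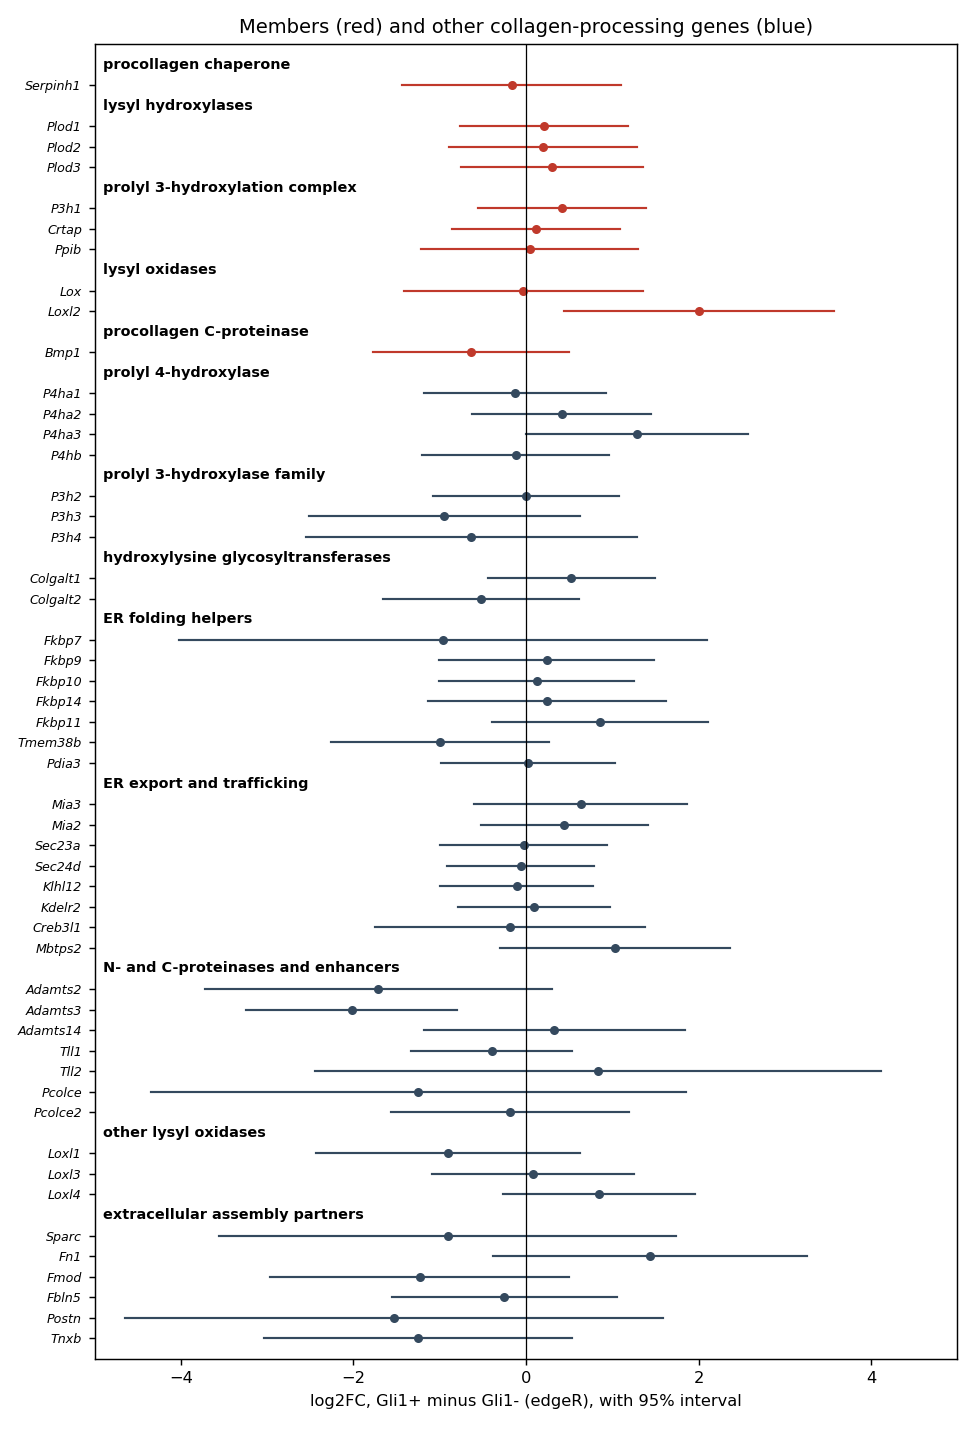
Log2FC (points, x axis) with 95% interval (lines) from edgeR for the 10 members (red) and the 40 other genes of collagen maturation (blue), grouped by role (y axis). Of the members only the interval of *Loxl2*, 0.44 to 3.56, lies wholly on 1 side of 0, and of the others only those of *P4ha3* and *Adamts3* do.

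The substrates give these enzymes their context. *Col2a1*, the main cartilage collagen, had a log2FC of -0.03, but its sign turned under several settings, and its level differed mainly by replicate number: 12239 and 13534 CPM in the libraries numbered 2 and 2130 to 3240 CPM in the others. Of the 8 cartilage collagens 1 had a log2FC above 0, and the median was -0.28. With the block, edgeR and limma-voom called 0 of the 8, and DESeq2 called 1 of 8, against 2.89% of all genes. It was *Col10a1*, the collagen of hypertrophic chondrocytes, lower in Gli1+ cells (log2FC -2.15), also without any 1 pair. In edgeR without the block its log2FC was -2.46, and -0.53 without Gli1- replicate 2. *Col9a2* was at -0.52.

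Of the 6 chains of types I, III and V, edgeR and limma-voom with the block called 0. DESeq2 with the block called *Col3a1* (-1.34) and *Col5a2* (-1.21) lower and *Col5a3* (1.88) higher in Gli1+ cells. That was 3 of 6, where 2.89% of all genes were called. In fits to 2 pairs these calls were lost without number 2 or 3, while the log2FC stayed at -1.59 to -1.12, -1.27 to -1.07 and 1.56 to 2.28. *Col3a1* is also on the list of fibroblast and perichondrium markers, and its edgeR log2FC of -1.25 without the block was -0.37 without Gli1- replicate 2. *Col5a3* was at 329.6, 482 and 2337 CPM in Gli1+ and at 156, 119 and 394 CPM in Gli1- libraries, and its edgeR log2FC without the block was 2.23, and 0.85 without Gli1+ replicate 3. *Col1a2*, the type I chain with the most counts, was at 308, 495 and 33.8 CPM in Gli1+ and at 360.2, 1887 and 117 CPM in Gli1- libraries.

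*Serpinh1* did not keep a fixed ratio to either substrate. Like *Col2a1*, it was highest in both replicate 2 libraries, but it varied less. Its highest library was 2.81 times its lowest, against 6.36 times for *Col2a1*. The log2 ratio of *Serpinh1* to type I collagen counts (*Col1a1* and *Col1a2*) ranged from 0.77 to 5.20 in Gli1+ and from -0.02 to 2.93 in Gli1- libraries, and type I RNA itself varied widely. The ratio to *Col2a1* was -1.68, -2.51 and -0.98 in Gli1+ and -0.97, -2.44 and -0.83 in Gli1- replicates 1, 2 and 3. It was lower in Gli1+ cells in all 3 pairs, and lowest in both replicate 2 libraries, where *Col2a1* was highest. The populations differed by 1.03 for the first ratio (exact permutation p = 0.6) and by -0.31 for the second (exact permutation p = 0.5), and the ratio of type I to *Col2a1* counts differed by -1.34 (exact permutation p = 0.3), all with an adjusted p of 0.7.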

How the data were processed

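The authors deposited raw read counts per gene for 6 libraries of poly-T-selected mRNA. The submitters' processing notes list HISAT2 2.0.5, featureCounts 1.5.0-p3 and the mm10 build. The annotation release, the strand setting and the treatment of reads with several matches are not given in the sources used here, so counts of overlapping genes and copies are uncertain. The table has 0 unused columns of per-sample values.

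Genes were filtered with filterByExpr (minimum count 10), scaled by TMM and tested with edgeR 4.0.16 (R 4.3.3) with the quasi-likelihood test and Benjamini-Hochberg adjustment over all 14801 genes tested. Alternatives were other scalings, no filter, DESeq2 1.42.0, limma-voom (limma 3.58.1), the replicate number as a block, and each library left out. Fits without both libraries of 1 number, the adjusted p alone with DESeq2 and the block, the addition of *Loxl2* copies and sign flips of paired ratios were chosen after seeing the data. With totals of 17114101 to 18602482 counts, counting error was small beside the spread between libraries for genes with many counts. It weighed more for genes with few, such as *Gli1* with 14, 19 and 46 counts in Gli1- replicates 1, 2 and 3. The p-values of the fits measure only the spread between libraries, with this counting error included.

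Per the study's text the sorted populations share their mice. Across genes, deviations of same-numbered libraries from their group means correlated at 0.223, 0.720 and 0.471 for numbers 1, 2 and 3. All were above 0.1, so the numbers were taken as pairs, and blocked values are given where they change a call. Gli1+ replicate 1 correlated more with Gli1- replicate 3 (0.2745) than with its own number, so number 1 is the least clear as a pair. Gli1+ replicate 3 and Gli1- replicate 1 were at 0.107, and the other unlike numbers correlated negatively. Ratios were compared by 2-sided exact permutation tests. Levels per kb use the deposited gene lengths. Coding sequences and exon overlaps came from GENCODE M21 (GRCm38), in which 9 of the 10 members have the deposited coordinates (*Lox* differs at its start).

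The members and gene lists were chosen with earlier results of these data known. Named genes are *Gli1*, the members, of the 40 other genes those with an unadjusted p under 0.05 or called by DESeq2 with the block and the most abundant of each role, and of the substrates the 2 most abundant of each list and any so called, with at most the 2 most abundant of a marker list. *Col1a1*, *Loxl1*, *Loxl3*, *Matn1* and the *Loxl2* copies fall outside this rule and were named after their values were seen.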

Additional observations from a re-analysis of the deposited data

How the results depend on the processing

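No gene was called by edgeR with any scaling, with the replicate block or with any single library left out (0 to 0 calls). The same held for limma-voom with and without the block. In edgeR 514 genes had an unadjusted p under 0.05 in the main fit, 279 to 1199 with a single library left out and 1274 with the block. Without the filter edgeR called 267 genes, DESeq2 called 30, and DESeq2 with the replicate block called 428, or 430 by the adjusted p alone. Without both libraries numbered 1, 2 or 3 the last of these fits called 781, 174 or 71. *Loxl2* was the 1 member called with the block, by either rule and without number 1 or 2. The paired fits changed no other call among the members. The members' median log2FC was -0.02 to 0.41 over the single libraries left out. Apart from *Loxl2*, *P3h1* and *Bmp1*, each member changed sign under some setting, and the cause was not tested.

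With single libraries left out, the log2FC ranged from -0.48 to 0.15 for *Serpinh1*, -0.11 to 0.45 for *Plod1*, -0.14 to 0.45 for *Plod2*, -0.10 to 0.37 for *Crtap*, -0.37 to 0.60 for *Ppib*, -0.33 to 0.38 for *Lox*, -0.26 to 0.39 for *Loxl3*, -0.030 to 0.18 for *Kdelr2*, -0.17 to 0.18 for *Pdia3*, -3.91 to 0.93 for *Pcolce*, -0.62 to 0.64 for *Pcolce2*, -0.34 to 0.19 for *P4hb*, -2.23 to 0.18 for *Col1a2*, -1.05 to 1.21 for *Col2a1* and -1.78 to 0.73 for *Col9a2*. Ratio differences ranged from -0.30 to 0.53 for *Plod2* over *Plod1*, -0.038 to 0.32 for *Plod3* over *Plod1*, -0.22 to 0.17 for *Ppib* over *Crtap*, -0.32 to 1.90 for *Serpinh1* over type I collagen and -0.82 to 0.084 for *Serpinh1* over *Col2a1*.

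Further signs turned as follows. *Col2a1* was at 0.045 with total counts alone, 0.11 with limma-voom and with DESeq2 and the replicate block, and 0.12 with edgeR or limma-voom and the block. *Pdia3* was at -0.0098 without the filter, and *Pcolce2* at 0.0026 with limma-voom. In DESeq2 with the block, leaving out number 1 gave 0.11 for *Serpinh1*, -0.13 for *Plod2* and 0.22 for *Col2a1*. Leaving out number 2 gave 0.33 for *Lox*, 0.24 for *Pcolce2*, 0.18 for *P4hb*, 0.23 for *Col2a1* and -0.011 for *Loxl3*. Leaving out number 3 gave -0.20 for *Plod1*, -0.044 for *Plod3*, -0.18 for *Crtap*, -0.23 for *Ppib*, -0.013 for *Kdelr2*, -0.19 for *Pdia3* and -0.077 for *Loxl3*.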

Other observations

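Fibre building is balanced by fibre removal, and *Mmp13*, the main collagenase of cartilage, had a larger log2FC than any of the 10 enzymes. It was at 5328, 2861 and 4859 CPM in Gli1+ replicates 1, 2 and 3, and at 457, 592 and 607 CPM in the Gli1- libraries, so the populations were well apart. The log2FC was 2.98 (standard error 0.54), with an unadjusted p of 0.000527 and an adjusted p of 0.9999 in edgeR's quasi-likelihood test. DESeq2 called it without the replicate block (adjusted p = 1.14e-06) and with it (adjusted p = 6.61e-12), while the blocked edgeR and limma-voom fits did not (adjusted p = 0.307 and 0.149), and edgeR called it when no filter was applied (adjusted p = 0.0471). The log2FC was 2.79 to 3.19 with any 1 library left out. *Mmp13* was listed here as a marker of hypertrophic chondrocytes, and *Col10a1* from the same list lay in the opposite direction, at 34.6, 285 and 71.9 CPM in Gli1+ and at 161, 1781 and 210.0 CPM in Gli1- libraries. Its log2FC of -2.46 was -0.53 without Gli1- replicate 2.

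*Plod2* and *Lox* are known targets of the hypoxia response. Of 12 other genes of that response 5 had a log2FC above 0, the median was -0.14, and none passed an unadjusted p under 0.05 in edgeR or was called by DESeq2 with the block. Their summed level was 1555 to 3228 CPM in Gli1+ and 2363 to 3950 CPM in Gli1- libraries, and it was lowest in Gli1+ replicate 1.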
